A study of Mus musculus with 24 samples.

Results

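The response of mouse lung 12 h after irradiation of the thorax was measured on 3 of the 24 arrays of a series, and these were set against the 3 arrays of lung from mice that were not irradiated. The arrays were chosen by their labels alone. At 12 h the lungs came from A/J, from C57BL/6J and from C3H/HeMs females at an age of 12 to 13 weeks, killed 12 h after a single local dose of 10 Gy of gamma rays to the thorax. The controls were lungs of female mice of the same 3 inbred strains and the same age range without irradiation. The labels name no transgene or engineered allele for any group. Each array held total RNA pooled from 3 mice of 1 strain, labelled with Cy3, against a common reference mixed from commercial RNA of 10 organs in Cy5, so each group had 1 pool per strain and the spread between single mice was not measured. Every p-value therefore reflects how unevenly the differences between groups ran across strains, with strain levels removed as a block. This spread was estimated over all 12 lung arrays, including those at 1 h and 72 h. Values below are log2 ratios of lung over this reference, and a change is the 12 h value minus the control value of the same strain.

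Ionising radiation breaks DNA, and the break-sensing kinases stabilise the transcription factor p53. p53 then switches on genes that stop the cell cycle, repair DNA, start apoptosis or feed back on p53 itself. Lymphocytes, above all B cells, are among the most radiosensitive cells of the body and die by apoptosis within hours, while most cells of the resting adult lung, such as endothelium and alveolar epithelium, divide rarely. The lung also holds macrophages, dendritic cells and a pool of neutrophils in its capillaries.

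The arrays of A/J and C3H/HeMs at 12 h, together with those of the same strains at 72 h, stood apart from the other 8 lung arrays. Correlations over 9275 probes were 0.89 to 0.94 among these 4 arrays, 0.90 to 0.96 among the other 8 and 0.80 to 0.89 between the sets. All these arrays share the reference RNA. Ratios of exactly 0 were deposited for 674 of 9275 probes on the A/J array and 183 on the C3H/HeMs array at 12 h, against 8 on the C57BL/6J array at 12 h and 1 to 6 on the controls. A ratio of 0 on at least 1 of the 6 arrays touched 718 features, of which 643 had no gene symbol. The change from control had an SD over features on the log2 scale of 0.73 for A/J, 0.36 for C57BL/6J and 0.59 for C3H/HeMs, so the C57BL/6J value is given beside most means. As a check of the tissue label, 10 of 11 alveolar epithelium genes and 22 of 22 endothelium genes lay above the reference in the mean of the controls. Of all 8750 features, 4389 did.

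Irradiated lung had 10 features that rose and none that fell at 12 h, out of 8750 tested (0.114%; limma with strain as a block over the 12 lung arrays, adjusted p under 0.05). At an unadjusted p under 0.05 there were 1055 features (12.1%), 611 higher and 444 lower. The 8 features with a gene symbol were Cdkn1a, Ccng1, Exoc4, Trp53inp1, Ephx1, Ctsf, Sncg and Ccn5. For each of these the 3 arrays at 12 h lay above all 3 controls, a separation that 6.39% of all features showed in that direction, and none had a ratio of exactly 0. In C57BL/6J alone their changes ranked between 1 and 186 among 8750 features. For 7 of the 8 the C57BL/6J change was the smallest of the 3 strains, as it was for 60.1% of the 1473 features that were higher in all strains. The call rests on the spread borrowed from all 12 lung arrays: with only the 6 arrays compared no feature passed, and the lowest adjusted p was 0.0777. With the 4 arrays that stood apart as a block, 6 features passed and Trp53inp1, Sncg and Ccn5 did not.

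**Figure D1:**
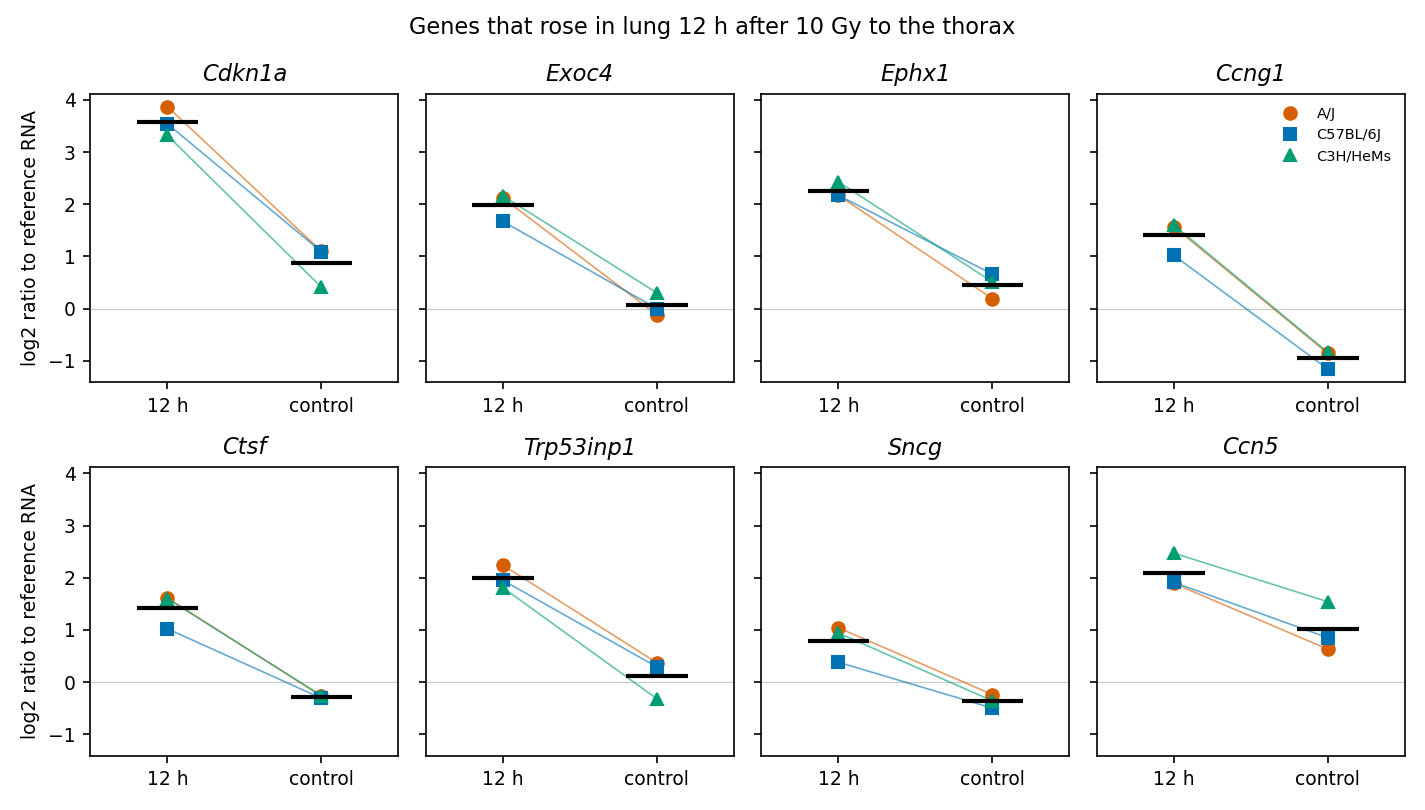
Log2 ratio to the reference RNA of the 8 named genes that passed, in lung at 12 h (left in each panel) and in control lung (right). Symbols and thin lines show the 3 strains, 1 pool of 3 mice each, and black bars the group means. In every panel the 12 h arrays lie above all 3 controls, with the widest gap for Cdkn1a (a mean change of 2.71).

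Cdkn1a, which encodes the cyclin-dependent kinase inhibitor p21 and is the classical arrest gene of p53, showed the largest change. Its log2 ratio at 12 h was 3.87 in the A/J pool, 3.54 in the C57BL/6J pool and 3.32 in the C3H/HeMs pool, against 1.10, 1.09 and 0.41 in the controls of these strains. The lowest irradiated pool lay far above the highest control. The mean change was 2.71 ± 0.20 (SE), or 6.54-fold, with an adjusted p of 0.00158 by limma, and 2.45 in C57BL/6J, the largest change on that strain's arrays. Ccng1 encodes cyclin G1, a p53 target that acts with a phosphatase on the p53 regulator Mdm2. Ccng1 stood at 1.57, 1.02 and 1.60 at 12 h, against -0.86, -1.16 and -0.84 in the controls of A/J, C57BL/6J and C3H/HeMs. It thus lay below the reference RNA in every control pool and above it in every irradiated one, a mean change of 2.35 ± 0.20 (adjusted p = 0.0016) with 2.18 in C57BL/6J.

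Trp53inp1, a p53-induced nuclear protein that promotes arrest and death, stood at 2.24, 1.95 and 1.81 at 12 h, against 0.37, 0.29 and -0.32 in the controls of A/J, C57BL/6J and C3H/HeMs. It rose by 1.89 ± 0.19 (adjusted p = 0.00432), with 1.66 in C57BL/6J, and the call was lost without the C3H/HeMs array at 12 h. Mdm2, the ubiquitin ligase that removes p53, had values of 1.71, 1.15 and 1.5 at 12 h, against 0.15, 0.15 and 0.16 in the controls of the same strains. The groups did not overlap and the change was 1.30 ± 0.19, 1.00 in C57BL/6J, but it did not pass over all features (adjusted p = 0.0569). Treating ratios of 0 as missing, leaving out the strain block, not centring the arrays, testing each probe, weighting the arrays or leaving out the C57BL/6J array at 1 h brought it past the threshold.

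The promoters of Cdkn1a and Ccng1 are shown because they hold the closest match to a full p53 binding site, 2 adjoining half-sites of 10 bases each, among the genes that passed. They are RefSeq windows of GRCm38.p6 from 250 bases before to 50 bases after a listed gene start, given 5′ to 3′ on the gene's strand, with the 20 bases of the paired half-sites in capitals. The Cdkn1a window shown is chr17:29090729-29091028 on the plus strand, and its pair starts at base -51, counted from the start listed for this window. A second listed window of Cdkn1a, chr17:29093519-29093818, held no exact half-site, and its best pair had 5 mismatches. The Ccng1 window is chr11:40755237-40755536 on the minus strand, and its pair starts at base -195, counted from the start listed for this window. Each pair differs from the p53 consensus at 1 base.
Cdkn1a: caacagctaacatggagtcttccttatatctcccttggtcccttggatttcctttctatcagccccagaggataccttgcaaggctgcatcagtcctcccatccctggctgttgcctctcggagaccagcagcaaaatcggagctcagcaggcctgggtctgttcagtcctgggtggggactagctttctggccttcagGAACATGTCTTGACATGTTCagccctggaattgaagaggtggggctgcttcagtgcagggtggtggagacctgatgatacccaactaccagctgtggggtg
Ccng1: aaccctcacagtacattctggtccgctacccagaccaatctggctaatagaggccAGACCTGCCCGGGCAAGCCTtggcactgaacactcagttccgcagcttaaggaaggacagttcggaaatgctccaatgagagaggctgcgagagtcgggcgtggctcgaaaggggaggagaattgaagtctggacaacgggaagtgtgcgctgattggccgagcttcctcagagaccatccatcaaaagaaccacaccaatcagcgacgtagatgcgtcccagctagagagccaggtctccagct

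Such a pair with at most 1 mismatch was found in 29 of 32851 promoter windows of the table (0.0883%), and a single exact half-site, searched on both strands, in 8.36%. Among the 8 genes that passed, 6 had a window, Cdkn1a, Exoc4, Ccng1 and Sncg held at least 1 exact half-site in it, and Cdkn1a and Ccng1 held a pair. Among the 10 measured genes of the p53 arrest and feedback list, 9 had a window, 6 held a half-site and 3 a pair, the third being Gtse1, which binds p53 in G2 phase. Gtse1 had a change of only 0.12 ± 0.14 (adjusted p = 0.691) and 0.01 in C57BL/6J. A match describes the letters of the window and is no measurement of p53 binding.

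The other genes that passed have less to do with the cell cycle. Exoc4, a subunit of the exocyst complex that tethers secretory vesicles to the plasma membrane, stood at 2.12, 1.67 and 2.16 at 12 h, against -0.12, 0.00 and 0.30 in the controls of A/J, C57BL/6J and C3H/HeMs. Its rise of 1.92 ± 0.15 (adjusted p = 0.00158; 1.67 in C57BL/6J) came from a level near that of the reference. Exoc5 and Exoc6, the other exocyst subunits measured, had mean changes of 0.29 and 0.09, with 0.03 and -0.31 in C57BL/6J. How the Exoc4 probe relates to its transcripts was not given in the sources used here. Ephx1, microsomal epoxide hydrolase, a detoxifying enzyme, stood at 2.17, 2.17 and 2.43 at 12 h, against 0.19, 0.66 and 0.51 in the controls of these strains. It rose by 1.80 ± 0.14 (adjusted p = 0.00158), with 1.51 in C57BL/6J. Of 28 detoxification genes Ephx1 alone passed, beside 0.114% of all features. The list had a median change of 0.31, with -0.08 in C57BL/6J. Among its members with the smallest p, Gsta2 had 0.71 ± 0.24 and Cyp4b1 0.47 ± 0.16, with 0.16 and 0.07 in C57BL/6J.

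Ctsf encodes cathepsin F, a lysosomal cysteine protease. It stood at 1.61, 1.02 and 1.60 at 12 h, against -0.27, -0.31 and -0.26 in the controls of A/J, C57BL/6J and C3H/HeMs. It rose by 1.69 ± 0.16 (adjusted p = 0.00331), with 1.33 in C57BL/6J. Of 20 exocyst and lysosome genes, Exoc4 and Ctsf passed, beside 0.114% of all features. This list, which joins exocyst and lysosome genes, was chosen with earlier results of these data known. Its median of 0.14 was near the 0.07 of all features. The lysosomal peptidase Tpp1 had 0.38 ± 0.12 without passing (adjusted p = 0.349), and 0.21 in C57BL/6J. Sncg encodes gamma-synuclein, a small protein of neurons that is also made in fat and smooth muscle. It stood at 1.04, 0.38 and 0.94 at 12 h, against -0.24, -0.50 and -0.36 in the controls of these strains. It rose by 1.15 ± 0.13 (adjusted p = 0.0116), with 0.88 in C57BL/6J, and kept the call in 8 of 12 fits that left out 1 lung array. Ccn5 (also called Wisp2), a secreted matricellular protein of mesenchymal cells, stood at 1.89, 1.91 and 2.47 at 12 h, against 0.63, 0.85 and 1.54 in the controls of the same strains. It rose by 1.08 ± 0.14 (adjusted p = 0.022), with 1.06 in C57BL/6J, and kept the call in 2 of those 12 fits. Cdkn1a, Ccng1, Exoc4, Ephx1 and Ctsf kept it in all 12.

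In RefSeq GRCm38.p6 the 8 genes lie on 8 different chromosomes. Cdkn1a spans chromosome 17 from 29090979 to 29100722, Ccng1 chromosome 11 from 40748552 to 40755309 and Trp53inp1 chromosome 4 from 11156441 to 11174379. Exoc4 spans chromosome 6 from 33249090 to 33973979, Ephx1 chromosome 1 from 180989556 to 181017569 and Ctsf chromosome 19 from 4855165 to 4860918. Sncg spans chromosome 14 from 34370274 to 34374669 and Ccn5 chromosome 2 from 163820752 to 163833146. The exon each cDNA probe covers was not given in the sources used here.

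The remaining p53 targets had smaller changes. Of the 10 arrest and feedback genes, 3 passed, beside 0.114% of all features. At 12 h, 6 were higher without overlap of the groups (60.0%, against 6.39% of all features). The list's median change was 0.47, with 0.36 in C57BL/6J, beside 0.07 and 0.00 for all features. Mdm4, a partner of Mdm2 that restrains p53, had 0.50 ± 0.16 and Ppm1d, the phosphatase that switches the damage signal off, 0.38 ± 0.13, with 0.33 and 0.38 in C57BL/6J, both without overlap but with adjusted p of 0.349 and 0.366. Gadd45a, a growth arrest gene that responds to damage in many cells, had only 0.24 ± 0.18, with 0.02 in C57BL/6J. Sfn, the epithelial 14-3-3 sigma, had -0.03 ± 0.14, with -0.19 in C57BL/6J. Ccng2, a relative of Ccng1, had 0.44 ± 0.24, but 1.00 in A/J and -0.06 in C57BL/6J.

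Of the 5 death genes none passed and 2 lay higher without overlap (40%, against 6.39%). Ei24, a p53-induced protein of the endoplasmic reticulum, stood at 1.59, 1.10 and 1.32 at 12 h, against 0.80, 0.20 and 0.47 in the controls of A/J, C57BL/6J and C3H/HeMs. The change was 0.85 ± 0.14 with nearly the same size in each strain, 0.79, 0.90 and 0.85 (adjusted p = 0.116). Pmaip1, the pro-apoptotic protein Noxa, stood at 2.60, 1.80 and 2.29 at 12 h, against 0.44, 0.62 and 1.47 in these controls. Its mean change of 1.38 ± 0.33 was larger but less even (adjusted p = 0.274), with 1.17 in C57BL/6J. Casp8, Bid and Tnfrsf10b, of the death receptor route, had 0.20, 0.14 and 0.06, with 0.10, 0.25 and -0.51 in C57BL/6J.

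Of 9 genes listed as p53 targets in repair and metabolism none passed and 2 lay higher without overlap (22.2%, against 6.39%). Over all 3 strains 3 members were higher and 3 lower, and the median was 0.08. Dcxr, a carbonyl reductase, stood at 1.20, 1.15 and 1.14 at 12 h, against 0.49, 0.37 and 0.27 in the controls of A/J, C57BL/6J and C3H/HeMs, a change of 0.79 ± 0.14 (adjusted p = 0.116) with 0.78 in C57BL/6J. Polk, a polymerase that copies past damaged bases, had 0.82 ± 0.17 (adjusted p = 0.219), with 0.64 in C57BL/6J. The sestrin Sesn1, the antioxidant enzymes Gpx1 and Sod2 and the repair gene Xpc lay between -0.20 and 0.36. Pltp and Igfbp3, a lipid transfer protein and a growth factor binding protein, had -0.34 and -0.32, with -0.75 and -0.08 in C57BL/6J, and the peptide transporter Tap1 -0.01.

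Genes of damage signalling and DNA repair showed no called change. Among 8 damage signalling genes the median was 0.02, with -0.16 in C57BL/6J. Brca1 had -0.87 ± 0.39 without overlap but only -0.03 in C57BL/6J, and Chek2, the checkpoint kinase, had 0.14 ± 0.17, with -0.24 in C57BL/6J. Rad17, which loads a checkpoint clamp, had 0.54 ± 0.19 and Clspn, an adaptor of the replication checkpoint, -0.54 ± 0.21, with 0.18 and -0.20 in C57BL/6J. Brca2, Nbn, Smc1a and Rad1 lay between -0.41 and 0.37. Among 19 DNA repair genes 4 lay higher without overlap (21.1%, against 6.39% of all features). They were the nucleotide excision nucleases Ercc4 (0.44 ± 0.14, 0.63 in C57BL/6J) and Ercc5 (0.76 ± 0.24, 0.14 in C57BL/6J), the mismatch repair gene Pms2 (0.58 ± 0.17, 0.19) and Prkdc, the kinase of end joining (0.51 ± 0.17, 0.49). Adjusted p for these 4 were 0.349 to 0.362.

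Replication and mitosis genes gave a mixed picture. Mcm2 and Mcm3, subunits of the helicase that opens replication origins, were the 2 of 28 replication genes whose groups separated downward (7.14%, against 3.47%). Mcm2 stood at -1.39, -1.13 and -1.44 at 12 h, against -0.34, -0.48 and -0.90 in the controls of A/J, C57BL/6J and C3H/HeMs. The changes were -0.75 ± 0.17 for Mcm2 and -0.45 ± 0.15 for Mcm3, -0.64 and -0.54 in C57BL/6J (adjusted p = 0.274 and 0.357). The list as a whole had a median of 0.01. Myc, a driver of cell growth and G1 progression, lay at -1.77, -1.74 and -1.74 at 12 h, against -0.90, -1.19 and -0.78 in these controls. Its change was -0.79 ± 0.23, with -0.55 in C57BL/6J (adjusted p = 0.349). The 34 mitosis genes had a median of -0.13, with -0.02 in C57BL/6J, and none passed.

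**Figure D2:**
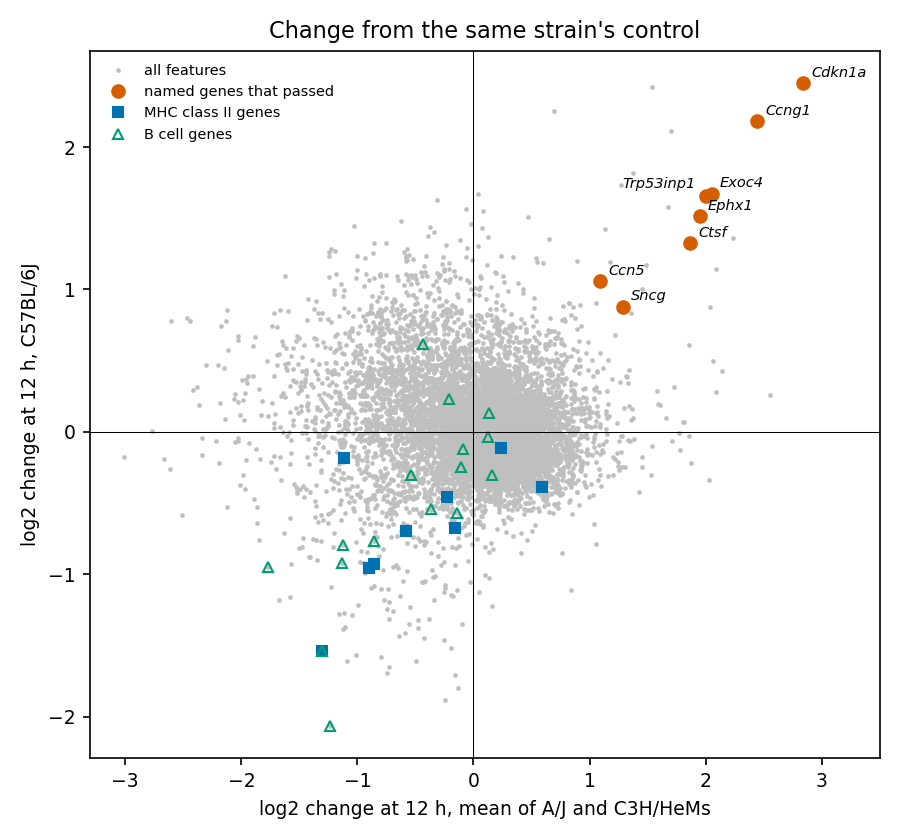
Log2 change at 12 h in C57BL/6J (vertical axis) against the mean change in A/J and C3H/HeMs (horizontal axis) for 8750 features, each change taken from the same strain's control. The 8 named genes that passed (orange) lie at the upper right, and the B cell and MHC class II genes with the largest changes lie at the lower left, among them Cd79a at -2.06 in C57BL/6J.

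MHC class II and B cell genes lay below control in irradiated lung, without a single call. MHC class II molecules present antigen on B cells, dendritic cells and some macrophages. Of 9 measured class II genes none passed, 6 were lower in all 3 strains and in the same 6 the groups did not overlap (66.7%, against 3.47% of all features). The list's median change was -0.62, at -0.87 for A/J, -0.67 for C57BL/6J and -0.29 for C3H/HeMs. In C57BL/6J all 9 were below control (100%, against 50.2% of all features). H2-Aa, the alpha chain of the A molecule, stood at -1.68, -1.37 and -1.0 at 12 h, against -0.46, -0.44 and -0.51 in the controls of A/J, C57BL/6J and C3H/HeMs. H2-Eb1, the beta chain of the E molecule, stood at -2.07, -1.12 and -1.38, against -0.74, -0.16 and -0.91 in these controls. Both chains were lower in every pool, by a mean of -0.88 ± 0.20 and -0.92 ± 0.22 (adjusted p = 0.274 for each), and -0.93 and -0.96 in C57BL/6J. In bulk tissue, fewer cells of a type and less RNA per cell cannot be told apart.

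The chaperone of class II assembly, Cd74 (the invariant chain), had a change of -0.62 ± 0.21, with -0.70 in C57BL/6J, and H2-DMa, which helps load peptides, -0.33 ± 0.16, with -0.67. Ciita, the master regulator that switches class II genes on, had -0.80 ± 0.29, but this mean was set by A/J at -1.77, against -0.18 in C57BL/6J and -0.46 in C3H/HeMs. H2-Ob, a modulator of peptide loading found mainly in B cells, had the largest change of the list, -1.38 ± 0.30 (adjusted p = 0.248). It stood at -1.34, -0.43 and -0.86 at 12 h, against 0.35, 1.11 and 0.07 in the controls of A/J, C57BL/6J and C3H/HeMs. The members that did not follow were Ctss, H2-DMb1 and H2-Ea, with mean changes of -0.30, 0.12 and 0.27. C57BL/6J mice are known not to transcribe H2-Ea, yet the control value of this probe was -1.22 in that strain, beside -1.25 in A/J and -1.32 in C3H/HeMs.

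The promoters of H2-Aa and H2-Eb1 are shown because their genes lay lower together in all strains and their windows hold the Y box, CTGATTGG, a conserved element of class II promoters bound by NF-Y (capitals). The stretches are from RefSeq, GRCm38.p6, 5′ to 3′ on the gene's strand, chr17:34287835-34287954 on the minus strand for H2-Aa and chr17:34305725-34305844 on the plus strand for H2-Eb1. The Y box starts at base -51 in H2-Aa and base -62 in H2-Eb1, counted from the gene start.
H2-Aa: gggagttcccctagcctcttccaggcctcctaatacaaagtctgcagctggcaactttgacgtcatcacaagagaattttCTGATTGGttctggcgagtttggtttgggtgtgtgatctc
H2-Eb1: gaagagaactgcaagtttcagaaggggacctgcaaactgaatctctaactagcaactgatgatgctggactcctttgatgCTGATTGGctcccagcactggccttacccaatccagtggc

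Of the 6 class II genes with a window, 2 held the Y box letters on either strand, against 4.1% of all 32851 windows. The same letters occurred in 2 of the 9 p53 arrest and feedback genes with a window, Ccng1 and Ppm1d. Ccng1 was also the 1 of 6 passed genes with a window that held them, so the letters were not particular to the class II genes. The absence of the letters from a window says nothing about the factor at that gene.

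B cell genes showed the same direction. Of 16 measured, 9 were lower in all 3 strains and none higher in all 3, set beside 10.7% and 16.8% of all features, and 7 separated the groups downward (43.8%, against 3.47%). H2-Ob counts in this list too. The median change was -0.36, at -0.59 for A/J, -0.42 for C57BL/6J and -0.10 for C3H/HeMs. Cd79a, which forms the signalling part of the B cell receptor with Cd79b, stood at -2.47, -2.65 and -2.31 at 12 h, against -0.53, -0.59 and -1.78 in the controls of A/J, C57BL/6J and C3H/HeMs. In C57BL/6J its change of -2.06 was the lowest of all 8750 features, and the mean was -1.51 ± 0.38 (adjusted p = 0.302). Cd79b had -1.06 ± 0.26, with -1.34, -0.92 and -0.93 by strain. Fcmr, the receptor for IgM, had -1.50 ± 0.38 with -0.95 in C57BL/6J, Fcrla, an Fc receptor-like protein of B cells, -1.01 ± 0.28 with -0.80, and Spib, a B cell transcription factor, -0.83 ± 0.27 with -0.77.

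Blk, a kinase of the B cell receptor, and Ebf1, a factor of B cell identity, were also counted as lower in all strains, with -0.43 ± 0.27 and -0.10 ± 0.11. In 1 strain each the change was near 0, at -0.00 in C3H/HeMs for Blk and -0.01 in A/J for Ebf1. Blk also counts as separated, although both C3H/HeMs pools stood at -0.36. The other members had no common direction or only small changes. Ms4a1 (CD20) and Cd22 had -0.46 and -0.28, both below control in A/J and C57BL/6J only. Cd37, Cd24a, Cr2, Btk and Cxcr5 lay between -0.08 and 0.13, with 0.13, -0.04, 0.23, 0.62 and -0.30 in C57BL/6J. Jchain, the joining chain of secreted antibody made by plasma cells, was lower in all strains by little and had -0.15 ± 0.24 with pools between -3.20 and -1.13 at 12 h, against -2.95 to -0.94 in controls. Differences between strains in Jchain were thus much wider than its change. Among the genes lower in all 3 strains the smallest change was that of C3H/HeMs for 5 of 6 class II genes and 6 of 9 B cell genes, beside 23.9% of the 940 such features overall. The strain difference was not tested.

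**Figure D3:**
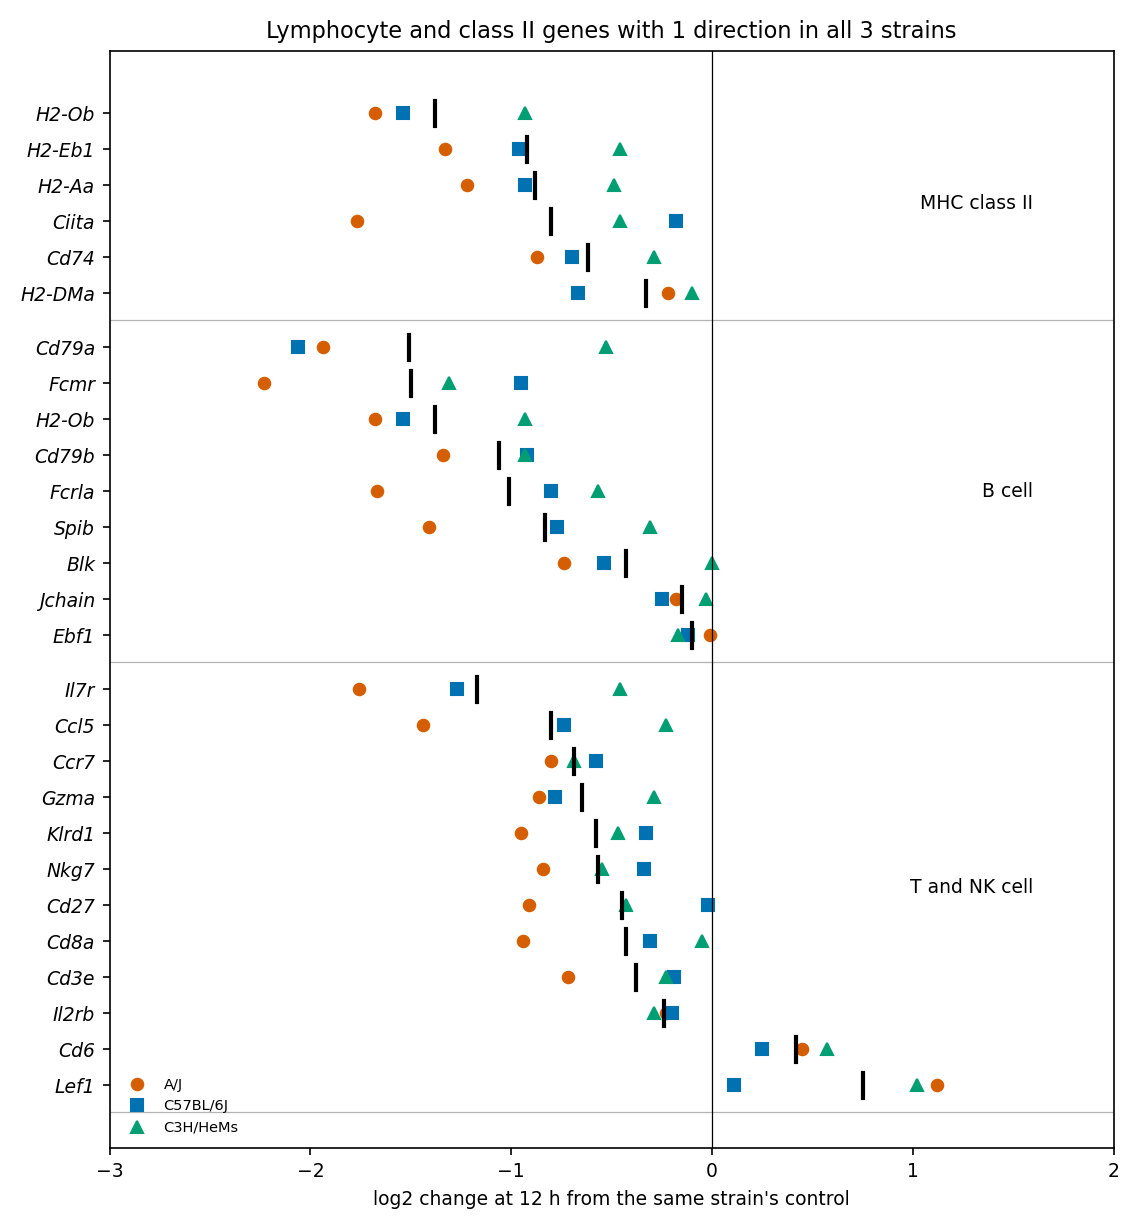
Log2 change at 12 h from the same strain's control for the MHC class II, B cell and T and NK cell genes that had 1 direction in all 3 strains. Each symbol is 1 strain (1 pool at 12 h against 1 control pool) and the black tick is the mean, and values run from -2.23 for Fcmr in A/J to 1.12 for Lef1 in A/J.

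T and NK cell genes also lay lower, without a call. Of 27 measured, 10 were lower in all 3 strains (37.0%, against 10.7%) and 2 higher (7.41%, against 16.8%), and 4 separated the groups downward (14.8%, against 3.47%). The median was -0.36, with -0.72 for A/J, -0.15 for C57BL/6J and -0.23 for C3H/HeMs. Il7r, the receptor for the survival cytokine interleukin-7, stood at -1.10, -0.29 and 0.12 at 12 h, against 0.66, 0.99 and 0.58 in the controls of A/J, C57BL/6J and C3H/HeMs. The change was -1.17 ± 0.25 (adjusted p = 0.22), with -1.27 in C57BL/6J. Ccr7, the homing receptor of naive T cells and migrating dendritic cells, had -0.69 ± 0.18, even across strains at -0.80, -0.58 and -0.69. The killer cell genes Klrd1, Nkg7 and Gzma had -0.58, -0.57 and -0.65, with -0.33, -0.34 and -0.78 in C57BL/6J.

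The T cell receptor complex itself was less clear. Cd3e had -0.38 ± 0.19, Cd3g -0.28 ± 0.21 and Cd3d 0.04 ± 0.15, with -0.19, -0.72 and 0.00 in C57BL/6J. The co-receptors Cd4 and Cd8a had -0.94 ± 0.52 and -0.43 ± 0.28, with 0.15 and -0.31 in C57BL/6J. Lef1, a T cell transcription factor also active in other tissues, and Cd6 lay higher in all strains, by 0.75 and 0.42, with 0.11 and 0.25 in C57BL/6J. The other members lay between -0.83 for Thy1 and 0.69 for Klrk1, with 0.41 and -0.10 in C57BL/6J. The 2 symbols with the smallest p among all lower features, named here after their values were seen, also belong to leukocytes. Spn (CD43, a surface sialoglycoprotein of T cells and myeloid cells) had -0.77 ± 0.13 and -0.64 in C57BL/6J (adjusted p = 0.108). Tcrb-V8.2, a T cell receptor beta segment, had -0.79 ± 0.14 and -0.55 in C57BL/6J (adjusted p = 0.119).

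A few neutrophil and inflammatory genes were high. The neutrophil and cytokine lists had medians near 0 for the mean change and above 0 in C57BL/6J. S100a8, a calcium-binding protein abundant in neutrophils, stood at 2.89, 1.29 and 0.50 at 12 h, against 0.49, -1.13 and -0.18 in the controls of A/J, C57BL/6J and C3H/HeMs. The groups separated by little and the change was 1.83 ± 0.59 (adjusted p = 0.349), 2.42 in C57BL/6J and 0.68 in C3H/HeMs. Csf3r, the receptor for granulocyte colony-stimulating factor, stood at 1.58, 1.13 and 0.86, against 0.46, 0.26 and 0.26 in these controls, a change of 0.86 ± 0.18 (adjusted p = 0.202) with 0.88 in C57BL/6J. The granule genes Ltf, Lcn2, Ngp, Camp and Mpo had mean changes between -0.46 and 0.01. The list of 10 had a median of -0.01, with 0.56 in C57BL/6J.

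Serpina3n, an acute phase protease inhibitor, was at least 2-fold higher in all 3 strains. It stood at 0.59, -0.33 and -1.05 at 12 h, against -0.90, -2.15 and -2.31 in the controls of A/J, C57BL/6J and C3H/HeMs. Because the strains differ in level the groups overlapped, and the change of 1.52 ± 0.36 did not pass (adjusted p = 0.274), with 1.82 in C57BL/6J. Saa3, an acute phase protein of macrophages, had 2.26 in C57BL/6J and 1.62 in C3H/HeMs but -0.24 in A/J. Its control value was 0.63 in A/J, beside -2.96 and -2.83 in C57BL/6J and C3H/HeMs. Il1b, the inflammatory cytokine interleukin-1 beta, had 1.51 in C57BL/6J and 0.82 ± 0.37 in the mean, and Slfn4, an interferon-regulated gene of myeloid cells, 1.73 and 1.43 ± 0.61. Of 29 cytokine and chemokine genes 7 were higher in all strains (24.1%, against 16.8%) and 3 lower (10.3%, against 10.7%), and none passed. The median was 0.04, with 0.38 in C57BL/6J, where 21 of 29 were higher (72.4%, against 49.8%). Of 21 interferon response genes 4 were higher without overlap (19.0%, against 6.39%) and 1 lower (4.76%, against 3.47%), while 4 were higher and 5 lower in all strains. Their medians were -0.14, 0.22 and 0.03 by strain. Among the 4 was Irf9, a subunit of the interferon signalling complex, with 0.56 ± 0.19, even across strains at 0.48, 0.56 and 0.63. Macrophage and monocyte genes had a median of 0.10 over 22 genes, with -0.01 in C57BL/6J, and none passed.

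Among genes of endothelium and alveolar epithelium none passed. Endothelium genes had a median of -0.02 over 22 genes, with -0.22 in C57BL/6J. In that strain 19 of 22 were lower (86.4%, against 50.2% of all features). In all 3 strains 6 were lower (27.3%, against 10.7%) and none higher, and 2 separated downward (9.09%, against 3.47%). Aqp1, the water channel of lung capillaries, stood at -0.36, 0.69 and -0.52 at 12 h, against 1.13, 1.09 and 0.98 in the controls of A/J, C57BL/6J and C3H/HeMs. The change was -1.13 ± 0.28 (adjusted p = 0.3), with -0.40 in C57BL/6J. Aplnr, the apelin receptor of microvascular endothelium, had -0.74 ± 0.19, with -0.54 in C57BL/6J. Kdr, Cdh5, Tek and Tie1, receptors and junction proteins that define endothelium, had mean changes between -0.21 and 0.06.

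Alveolar epithelium had a median of 0.15 over 11 genes, with -0.16 in C57BL/6J. In that strain 10 of 11 were lower (90.9%, against 50.2% of all features). Sftpc, surfactant protein C, stood at 3.31, 2.10 and 3.17 at 12 h, against 2.44, 2.41 and 0.98 in the controls of A/J, C57BL/6J and C3H/HeMs, and its direction differed between strains. Among 37 genes of matrix and fibroblasts, Ccn5 alone passed, beside 0.114% of all features. Mmp2, a gelatinase, was next with 1.64, 1.55 and 1.54 at 12 h, against 0.44, 0.66 and 0.91 in these controls. It had a change of 0.91 ± 0.17 (adjusted p = 0.147), with 0.89 in C57BL/6J. The list's median was -0.01. Smooth muscle genes had a median of 0.09 over 12 genes, with -0.09 in C57BL/6J. In all 3 strains 2 were higher (16.7%, against 16.8%), among them Sncg, and 2 lower (16.7%, against 10.7%). The 2 lower were the actins Actg2 and Acta2, with -0.79 ± 0.24 and -0.42 ± 0.19, and -0.38 and -0.40 in C57BL/6J.

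Immediate early genes, which are switched on within minutes of a stimulus, had a median change of 0.03. It was 0.12 in A/J and -0.15 in both C57BL/6J and C3H/HeMs. Of 21, 2 were higher in all strains (9.52%, against 16.8%) and 4 lower (19.0%, against 10.7%). Without overlap 3 were lower (14.3%, against 3.47%) and none higher. Nr4a1, an orphan nuclear receptor, stood at -1.54, -0.81 and -0.91 at 12 h, against -0.31, -0.47 and 0.31 in the controls of A/J, C57BL/6J and C3H/HeMs, a change of -0.93 ± 0.24 (adjusted p = 0.302) with -0.33 in C57BL/6J. Klf2, a factor of quiescent endothelium and naive lymphocytes, had -0.51 ± 0.14 with -0.63, -0.47 and -0.41 by strain, and the phosphatase Dusp2 -0.65 ± 0.19, with -0.50 in C57BL/6J. At 1 h, against the same controls, these genes had 0.59, 0.16 and 0.29.

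Several lists divided the strains. Of 38 lists, 17 had a median above 0 in A/J and C3H/HeMs and below 0 in C57BL/6J, 3 a median above 0 in all strains and 3 a median below 0 in all strains. The lists above 0 in all strains were the p53 arrest and feedback genes, the p53-induced death genes and the DNA repair genes. Those below 0 in all were MHC class II, B cell and T and NK cell genes. Of 21 ribosomal protein genes, 20 were higher at 12 h in both A/J and C3H/HeMs. The share of all features higher in both was not counted. In C57BL/6J 21 were lower (100%, against 50.2% of all features). The medians were 0.53 in A/J, 0.76 in C3H/HeMs and -0.37 in C57BL/6J. Respiratory chain genes had medians of 0.36, 0.38 and -0.28 over 30 genes. The 2 strains on 1 side are those whose 12 h arrays stood apart from the others. The part of this array difference in the list medians was not tested.

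**Figure D4:**
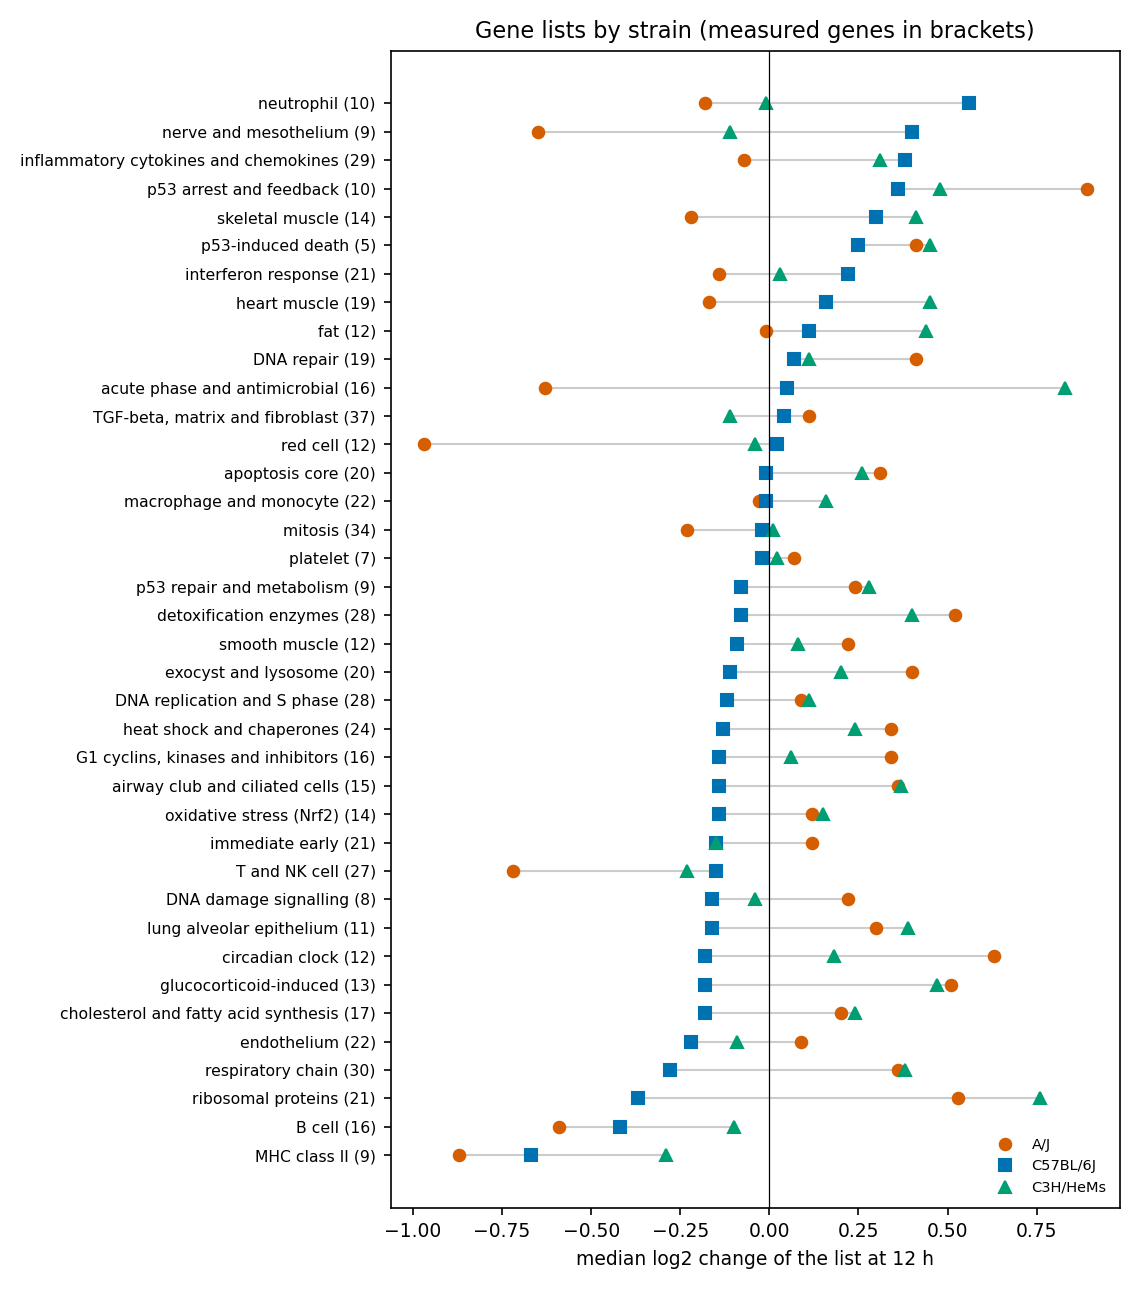
Median log2 change at 12 h of each of 38 gene lists (rows, with the number of measured genes in brackets) with 1 symbol per strain, ordered by the C57BL/6J value. MHC class II and B cell genes lie below 0 in every strain, with C57BL/6J medians of -0.67 and -0.42, and ribosomal protein genes lie on opposite sides.

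Among genes with 1 direction in all strains, several of the largest mean changes rested on 1 strain and did not pass. Tomm40, the pore of the outer mitochondrial membrane, had the lowest mean, -1.87 ± 0.66. It stood at -1.83, -2.60 and -2.72 at 12 h, against 1.33, -2.02 and -0.85 in the controls of A/J, C57BL/6J and C3H/HeMs, so the groups overlapped and C57BL/6J had -0.58. Wdr75, a protein of ribosome assembly, had -1.84 ± 0.90, with -4.37 in C3H/HeMs and -0.19 in C57BL/6J. In each of these genes 1 control pool stood well above the other controls.

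Klk5, Ly6d, Unc13c and Slc6a12 had means of -1.39, -1.36, -1.20 and -1.15, largest in A/J each time, with -0.07, -0.93, -0.17 and -0.36 in C57BL/6J. Ly6d, which marks early B cells and also squamous epithelium, was the most even of these 4. Upward, Clca1, a secreted protein of mucous airway cells, had 1.77 ± 0.64, with 3.91 in C3H/HeMs and 1.15 in C57BL/6J. Tnnt1, a slow skeletal muscle troponin, and Gfpt1, the entry enzyme of hexosamine synthesis, had 1.57 ± 0.62 and 1.54 ± 0.66, with 3.54 and 3.91 in A/J and 0.42 and 0.50 in C57BL/6J. Adjusted p for these 9 genes lay between 0.349 and 0.438.

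In C57BL/6J taken alone, the genes with the largest changes beyond those above were not matched in every strain. Clca3a1, Trak1 and Apcs, the last an acute phase pentraxin, had 1.46, 1.44 and 1.38 in C57BL/6J, but -0.18, -0.88 and -1.86 in A/J. Cplx2, which regulates vesicle release, had -1.88 in C57BL/6J and 0.11 in A/J. Malat1, a nuclear long noncoding RNA, had -1.22 in C57BL/6J and -1.79 in A/J, but -0.20 in C3H/HeMs. Aph1a, a subunit of gamma-secretase, and Fabp5, a fatty acid carrier, had -1.18 and -1.15 in C57BL/6J, with -0.06 and 0.12 in C3H/HeMs.

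The 1 h and 72 h arrays share their controls with the 12 h arrays, and each time's own mean change from control is given side by side. Cdkn1a had 2.23 at 1 h, 2.71 at 12 h and 2.54 at 72 h, and Trp53inp1 had 1.31, 1.89 and 1.40. Ccng1 had 0.69, 2.35 and 1.75, and Mdm2 0.73, 1.30 and 1.20. Exoc4, Ephx1, Ctsf and Ccn5 had values between -0.12 and 0.02 at 1 h, between 1.08 and 1.92 at 12 h and between 0.54 and 1.52 at 72 h. These 4 genes thus had mean values near 0 at 1 h. Sncg had 0.33, 1.15 and 0.91. The class II median was -0.03 at 1 h, -0.62 at 12 h and -0.44 at 72 h, and the B cell median -0.22, -0.36 and -0.29. Differences between the times were not tested here.

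**Figure D5:**
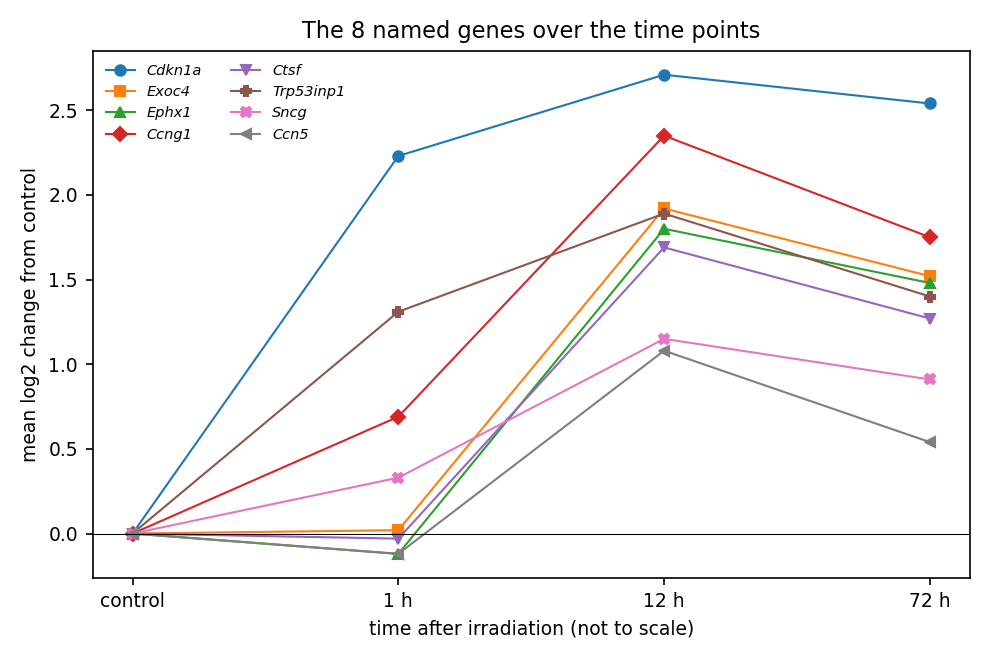
Mean log2 change from control of the 8 named genes at 1 h, 12 h and 72 h, with the control at 0 by construction and the time axis not to scale. Each point is a mean over 3 strains, all times share the same 3 control arrays, and Cdkn1a lies at 2.23, 2.71 and 2.54.

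A change of at least 2-fold in each strain was reached by 13 features in the upward direction (0.149%) and 2 in the downward direction (0.0229%). Of the 13, 9 had a symbol, namely Cdkn1a, Ccng1, Exoc4, Trp53inp1, Ephx1, Ctsf, Mdm2, Serpina3n and Uox. Uox, urate oxidase, is chiefly a liver enzyme. Its log2 ratio was -1.97, -2.79 and -1.22 at 12 h, against -3.20, -3.98 and -2.35 in the controls of A/J, C57BL/6J and C3H/HeMs, so it lay well below the reference throughout and its change of 1.18 ± 0.33 did not pass (adjusted p = 0.335). Uox is named outside the rule, after its values were seen. The 2 features lower in each strain had no gene symbol, with changes of -1.51 ± 0.26 and -1.21 ± 0.31. Of the 10 features that passed, 2 had no symbol either, with rises of 1.64 ± 0.14 and 1.94 ± 0.23 (1.58 and 1.36 in C57BL/6J; adjusted p = 0.0016 and 0.0138).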

How the data were processed

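Lung RNA was hybridised to an Agilent mouse cDNA array of 9275 probes. The authors deposited the log10 ratio of Cy5 to Cy3 for each probe, made with Agilent Feature Extraction per the submitters' processing notes. Neither its version nor its background and dye steps are given in the sources used here. No ratio exceeded ±2, and precision is limited by how few arrays there are.

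Lung carried Cy3, so signs were turned, values were put on the log2 scale and arrays centred on their medians. Probes were named from the platform annotation, 6433 with 1 symbol, 381 with several and 2461 with none, and averaged per gene into 8750 features. limma 3.58.1 in R 4.3.3 was fitted to 12 lung arrays with 4 groups and strain as a block (6 residual degrees of freedom), with Benjamini-Hochberg adjustment over all features at 0.05. The replicate number is the strain. Deviations from group means correlated between -0.05 and 0.71 within strains. On simulated data of 8750 features the fit recovered 69% of 100 changed 2-fold and 88% of 100 changed 4-fold for lung 12 h against control. There were 11 false calls among the unchanged features. The simulated noise was independent and of equal spread on all arrays for each feature, with no strain effect and no set of arrays apart. These rates may therefore not hold for the real arrays.

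The members and the 38 gene lists, which have 5 or more measured genes each, were chosen with earlier results of these data known. The text draws its genes from those that passed, the 10 largest rises and falls of 1 direction in all strains, up to 4 genes of smallest p per list (all of the p53, damage signalling, class II and lymphocyte lists) and the 5 largest rises and falls in C57BL/6J. For lists the text does not discuss, the medians are plotted. Exoc5, Exoc6 and the other list members named beside these were chosen after their values were seen. Alternatives varied the block, samples, centring, zeros, limits, probes and weights.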

Additional observations from a re-analysis of the deposited data

Results flagged for a closer look

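Of the 38 gene lists, 6 were picked out because the median log2 change at 12 h in C57BL/6J lay on the opposite side of 0 from those in both A/J and C3H/HeMs with a gap of at least 0.5 to each. The difference between strains was not tested, since each strain had 1 array per group. Ribosomal protein genes had -0.37 in C57BL/6J, beside 0.53 in A/J and 0.76 in C3H/HeMs (21 genes). Respiratory chain genes had -0.28, beside 0.36 and 0.38 (30 genes). Glucocorticoid-induced genes had -0.18, beside 0.51 and 0.47 (13 genes), with Tsc22d3 at -1.11 in C57BL/6J and 0.95 and 0.72 in A/J and C3H/HeMs. Genes of airway club and ciliated cells had -0.14, beside 0.36 and 0.37 (15 genes). Neutrophil genes had 0.56, beside -0.18 and -0.01 (10 genes), and genes of nerve and mesothelium 0.4, beside -0.65 and -0.11 (9 genes). At 12 h, A/J and C3H/HeMs are the strains whose arrays stood apart from the other lung arrays and held 674 and 183 ratios of exactly 0. The part of this in the list medians was not tested.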

How the results depend on the processing

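The count of 10 features that rose was 9 with no replicate block, 8 of them shared, with Mdm2 added and Sncg and Ccn5 lost. It was 0 with only the groups compared and 6 with the array set as a block, and 0 to 10 when single arrays or whole strains were left out. Without A/J, and without C3H/HeMs, no feature passed. No feature fell in the main fit, against 1 after quantile normalization, 2 with array weights, 1 after scale normalization (an alternative added after seeing the data) and 0 to 1 when arrays or strains were left out, the 1 being Krt10 without the C57BL/6J arrays and a probe with no symbol without the C57BL/6J array at 12 h alone. Cdkn1a kept a change of 2.34 to 2.84 over all settings run and Ccng1 1.99 to 2.5. Of the 13 features at least 2-fold higher in each strain, the count was 34 at 1.5-fold, 129 in C57BL/6J alone and, added after seeing the data, 21 to 46 without 1 strain. For the 2 lower, it was 4 after quantile normalization, 0 with ratios of 0 as missing, 43 at 1.5-fold, 60 in C57BL/6J alone and 11 to 137 without 1 strain. Fewer strains to satisfy raise such counts by construction. For the other counts the cause was not tested. The medians of the p53 arrest, MHC class II, B cell and T and NK cell lists moved by less than the spread between strains under every alternative run.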
